A study of Saccharomyces cerevisiae with 4 samples.

Results

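Yeast cells that starve in acetate medium before making spores live on acetate as their carbon source, and the genes described here are those that let them do so. The 10 genes were ADY2 and JEN1 (uptake), ACS1 (activation), ICL1, MLS1 and MDH2 (glyoxylate cycle), SFC1 (mitochondrial exchange), PCK1 and FBP1 (gluconeogenesis) and CAT8 (the transcriptional activator), chosen by name out of 6664 nuclear genes. All 10 had a value in every library, and all 10 passed the filter on low values, a mean of at least 1 TPM (reads per coding length, scaled so that library totals are equal), as did 5783 genes in all.

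The cells were meiotic cultures of SK1, a Saccharomyces cerevisiae background that sporulates efficiently, and they were pregrown in acetate-containing medium and harvested after 4 h in potassium acetate sporulation medium. Per the sample titles, one strain lacked NDT80 and PCH2 (ndt80pch2) and the other lacked NDT80 alone (ndt80), with 2 samples each. The other labels of the ndt80pch2 samples name the NDT80 deletion alone, and PCH2 reads are given below as a check. Both strains therefore lacked Ndt80, the transcription factor without which cells stay in meiotic prophase, so neither is a wild type, and the comparison asks what the added loss of Pch2, an AAA+ ATPase of meiotic chromosomes, does to transcript levels. Whether both samples of a strain were grown as separate cultures is not stated in the labels. The p-values below therefore cover the spread between the sequenced samples alone, and that spread may be technical.

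The deposited tables give 1 value per gene and strain, and reads per library were recovered from them by solving each value for whole reads. From its first mitochondrial row on, the ndt80 column averages libraries of different genes, and the values below are those put back to their own genes. The libraries are called C and D (ndt80pch2) and A and B (ndt80), since the values do not show which is replicate 1. They held 1656203 and 1655407 recovered reads over nuclear genes in ndt80pch2, and 2099576 and 2305666 in ndt80. PCH2 had 0 reads in both ndt80pch2 libraries, against 710 and 776 in the ndt80 libraries, at least 189-fold lower when each 0 is set to a floor of 3 reads per library. NDT80 had 0 reads in all 4, and the floor of 3 reads there amounts to 0.846 to 1.16 TPM. The 10 markers of meiotic prophase summed to 4912 and 5651 TPM in ndt80pch2, against 5069 and 5483 TPM in ndt80. The 10 markers of dividing cells summed to 162 and 175 TPM in ndt80pch2, against 187 and 207 TPM in ndt80. The 8 haploid and mating markers summed to 62.1 and 73.6 TPM in ndt80pch2, against 76.3 and 71.6 TPM in ndt80, with MFA1 and MFA2 at 0 reads throughout. Marker genes of later meiosis that depend on Ndt80, 10 in all, were not absent. They summed to 919.8 and 956.2 TPM in ndt80pch2, against 954.3 and 929.7 TPM in ndt80. In such bulk samples, fewer cells of a type and less RNA per cell cannot be told apart.

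As background, acetate enters the cell through plasma membrane carriers and is joined to coenzyme A. The glyoxylate cycle bypasses the decarboxylating steps of the tricarboxylic acid cycle, so that acetyl units can be turned into malate and oxaloacetate instead of carbon dioxide. Gluconeogenesis then runs glycolysis backwards, using enzymes of its own at the steps that glycolysis cannot reverse. In yeast these genes are repressed by glucose. On acetate or ethanol the zinc cluster protein Cat8, which depends on the kinase Snf1, acts with the related protein Sip4 through a promoter sequence called the carbon source responsive element.

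The letters of that element, CC, any base, TT, any 3 bases and CCG, were searched on both strands upstream of 5988 protein-coding genes, in the R64 genome and its RefSeq annotation. In the 250 bases before the start codon, 0 of the 10 genes and 0.985% of all genes held a match. In a window of 800 bases, chosen after the data were seen, 7 of the 10 genes held at least 1, against 4.12% of all genes. The 7 were ICL1, MLS1, MDH2, PCK1, ACS1, ADY2 and SFC1, and all their matches lay outside annotated coding sequence. JEN1, FBP1 and CAT8 had none, which says only that these letters are not in the window. One match per gene, the nearest to the start codon, is shown with all 3 of PCK1, the 1 gene of the group with an unadjusted p under 0.05. Each line reads 5′ to 3′ on the strand that spells the motif, with the matched letters in capitals.
ICL1, chrV:287293-287321: cccaggtttCCATTCATCCGagcgatcac
MLS1, chrXIV:405849-405877: tcatagcttCCATTGGGCCGatgaagtta
MDH2, chrXV:83278-83306: ttactttgcCCATTCGGCCGtagccgttc
ACS1, chrI:45374-45402: gtgactgctCCATTTCGCCGgatgtcgag
ADY2, chrIII:133616-133644: gtccactgcCCGTTGATCCGgagctccgt
SFC1, chrX:609184-609212: cgccaacgtCCATTTCTCCGggcgggcgc
PCK1, nearest, chrXI:630781-630809: ctgtttgggCCCTTTATCCGcctatccat
PCK1, middle, chrXI:630662-630690: accgagcttCCTTTCATCCGgcgcggctg
PCK1, farthest, chrXI:630581-630609: tccagatctCCATTCACCCGtcagcgtcc

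The matches stood at different distances from the coding sequence. The nearest base of the match lay 352 bases before the start codon in PCK1, 361 in ACS1, 367 in MDH2 and 388 in ICL1. It lay 490 bases before it in MLS1, 501 in ADY2 and 570 in SFC1. The other matches of PCK1 stood at 471 and 552 bases. MDH2 and SFC1 also held 3 matches each, and MLS1 and ACS1 held 2 each, so the number of matches did not single out PCK1.

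The core of URS1, the sequence through which the repressor Ume6 holds early meiotic genes off outside meiosis, was searched as GGCGGC in the same way. Within 250 bases it was found in 2 of the 10 genes, ACS1 and ADY2, against 4.18% of all genes. Within 800 bases it was found in 5, with CAT8, JEN1 and MDH2 added, against 15.0% of all genes. These matches are shown for the 2 most abundant transcripts of the group, ADY2 and ACS1, which both hold the core in the shorter window.
ADY2, chrIII:133352-133380: tatcgcgggttgGGCGGCtatggcgcctt
ACS1, nearest, chrI:45134-45162: gtatataaactgGGCGGCtattctaagca
ACS1, farther, chrI:45231-45259: atcggaggctcGGCGGCaattcgtacccc

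The genes lie on 9 chromosomes, with PCK1 (631152 to 632801) and JEN1 (22234 to 24084) near opposite ends of chromosome XI, 34.0 and 22.2 kb from the end. ADY2 is on chromosome III (132273 to 133124), ACS1 on I (42881 to 45022), ICL1 on V (285241 to 286914) and SFC1 on X (609773 to 610741). FBP1 is on XII (873746 to 874792), CAT8 on XIII (827028 to 831329), MLS1 on XIV (406358 to 408022) and MDH2 on XV (81787 to 82920). Each is a single coding exon. The G+C content of the coding sequence was 41.4% to 45.4% for the enzymes and carriers, above the median of 39.81% over all genes, and 37.7% for CAT8.

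Transcripts of ADY2 (uptake) and ACS1 (activation) dominated the group in both strains, and their libraries overlapped between the strains. The share of the 10 genes was taken over the TPM of nuclear genes with a value in all 4 libraries. It was 1.39% and 1.48% in ndt80pch2, against 1.37% and 1.52% in ndt80. ADY2 and ACS1 alone held 63.97% and 66.3% of the summed TPM of the 10 genes in ndt80pch2, against 68.5% and 69.0% in ndt80. ADY2, the acetate permease, ranked 16th and 12th in ndt80pch2, against 11th and 8th in ndt80. These places count only the 6645 nuclear genes with a value in all 4 libraries. The 19 genes left out include FBA1, which stood above ADY2 in libraries C, D and A, at 8142, 6833 and 6208 TPM.

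ADY2 had 4986 and 5739.9 TPM in ndt80pch2 libraries C and D, against 5432 and 6009.6 TPM in ndt80 libraries A and B. The ndt80pch2 libraries spread over 4986 to 5739.9 TPM and enclosed ndt80 library A, so the strains overlapped. ACS1, the acetyl-CoA synthetase used on acetate, had 2542 and 2785 TPM in ndt80pch2, against 2687 and 3179 TPM in ndt80. Here too ndt80 library A lay between both ndt80pch2 libraries. JEN1, a proton-coupled carrier of lactate, pyruvate and acetate, had 271 and 300.1 TPM in ndt80pch2, against 282 and 369.6 TPM in ndt80. Library B was the highest for all 3 genes.

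The difference between strains was tested with limma-trend on log2(TPM + 1) over all 5783 genes, with Benjamini-Hochberg adjustment. The median log2 fold change of all genes was -0.15, so each change is given relative to that median, while its p belongs to the change before the subtraction. ADY2 differed by 0.053 ± 0.14 on the log2 scale relative to the median gene (SE; adjusted p = 0.7405). ACS1 differed by 0.012 ± 0.13 (adjusted p = 0.5936) and JEN1 by -0.029 ± 0.14 (adjusted p = 0.5307). With their 95% intervals, the relative fold changes ran from 0.817 to 1.317 for ADY2, 0.810 to 1.255 for ACS1 and 0.7703 to 1.247 for JEN1.

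**Figure D1:**
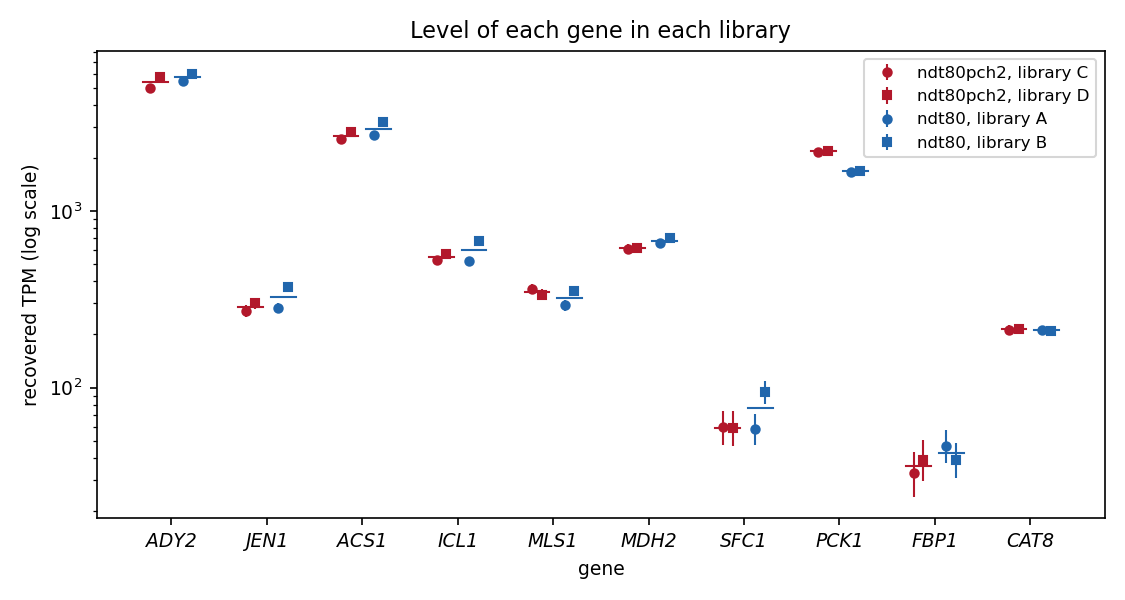
Recovered TPM (log scale) of each gene in each library, ndt80pch2 left of ndt80; points are libraries, vertical bars the 95% Poisson interval of the read count (counting error only) and horizontal lines the mean of a strain. The levels run from 32.7 TPM (FBP1) to 6009.6 TPM (ADY2), and PCK1 has both ndt80pch2 libraries, at 2164.5 and 2192 TPM, above both ndt80 libraries, at 1666 and 1683 TPM.

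The glyoxylate cycle genes stood at similar levels in both strains. MDH2 was the 1 of the 3 whose libraries did not overlap, as in 51.8% of all tested genes. ICL1, isocitrate lyase, which splits isocitrate into glyoxylate and succinate, had 526 and 568.6 TPM in ndt80pch2, against 522 and 675.0 TPM in ndt80. Both ndt80pch2 libraries lay inside the ndt80 range. MLS1, malate synthase, which joins glyoxylate to acetyl-CoA, had 361 and 336 TPM in ndt80pch2, against 293 and 353 TPM in ndt80. Library A was the low one and the other 3 lay close together. MDH2, the cytosolic malate dehydrogenase that makes oxaloacetate, had 612 and 616 TPM in ndt80pch2, against 655 and 702 TPM in ndt80. Both ndt80pch2 libraries were below both ndt80 libraries.

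MDH2 averaged 614 ± 3.18 TPM in ndt80pch2 and 678.5 ± 32.8 TPM in ndt80 (SD, n = 2 each). Its change equalled that of the median gene, with a relative log2 fold change of 0.0045 ± 0.087 (SE; limma adjusted p = 0.4229). ICL1 had 0.029 ± 0.14 (adjusted p = 0.6591) and MLS1 0.26 ± 0.12 (adjusted p = 0.6054). Their 95% intervals on the relative fold were 0.866 to 1.161 for MDH2, 0.811 to 1.284 for ICL1 and 0.988 to 1.458 for MLS1. The ratio of ICL1 to MLS1 within a library, which no scaling of libraries changes, was 1.46 and 1.69 in ndt80pch2, against 1.78 and 1.91 in ndt80. SFC1, the mitochondrial carrier that brings cytosolic succinate in and sends fumarate out, had 59.7 and 58.8 TPM in ndt80pch2, against 58.2 and 94.3 TPM in ndt80. Library B alone stood apart for SFC1, by more than counting error, since its 95% Poisson interval was 80.8 to 109.5 TPM and that of library A was 47.2 to 71.0 TPM. The relative log2 change of SFC1 was -0.17 ± 0.22 (limma adjusted p = 0.4765).

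Of the gluconeogenic enzymes, PCK1 stood higher in ndt80pch2 by more than its libraries spread but did not pass the adjusted test, and FBP1 had few reads. PCK1, phosphoenolpyruvate carboxykinase, which converts oxaloacetate to phosphoenolpyruvate, had 2164.5 and 2192 TPM in ndt80pch2, from 5004 and 4948 reads. In ndt80 it had 1666 and 1683 TPM, from 4728 and 5225 reads. Both ndt80pch2 libraries were above both ndt80 libraries, and the gap between strains was far wider than that between libraries of a strain. The means were 2178 ± 19.5 TPM in ndt80pch2 and 1675 ± 12.03 TPM in ndt80 (SD, n = 2 each), a ratio of 1.30. Relative to the median gene the log2 fold change was 0.53 ± 0.096 (SE), a fold of 1.441 with a 95% interval of 1.225 to 1.694. The unadjusted p was 0.007076, and PCK1 did not pass the adjustment over all genes (limma-trend adjusted p = 0.2785). With limma-voom on the recovered reads the adjusted p was 0.0636. A relative change at least as large as that of PCK1, higher in ndt80pch2, was found in 4.81% of all genes tested.

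FBP1, fructose bisphosphatase, which catalyses the last step particular to gluconeogenesis before glucose phosphates, was the lowest of the 10. It had 32.7 and 39.1 TPM in ndt80pch2, from 48 and 56 reads, against 46.7 and 39.1 TPM in ndt80, from 84 and 77 reads. Library D of ndt80pch2 and library B of ndt80 were level, at 39.10 and 39.09 TPM. The counting intervals were wide, 24.1 to 43.4 TPM in library C and 37.2 to 57.8 TPM in library A. The relative log2 change was -0.10 ± 0.17 (limma adjusted p = 0.4678), with a 95% interval on the fold of 0.6982 to 1.244. Within a library PCK1 exceeded FBP1 66.2-fold and 56.1-fold in ndt80pch2, against 35.7-fold and 43.1-fold in ndt80. PCK1 exceeded ICL1 4.11-fold and 3.86-fold in ndt80pch2, against 3.19-fold and 2.49-fold in ndt80. These ratios are descriptions without a test, since an exact test of 2 against 2 libraries cannot pass a threshold of 0.05.

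CAT8, the activator of the pathway, was the steadiest of the 10 across libraries. It had 213.2 and 213.9 TPM in ndt80pch2, against 212.9 and 209.8 TPM in ndt80. Both ndt80pch2 libraries lay above both ndt80 libraries, but by less than the 95% Poisson interval of any of the 4 values, which was 202 to 224 TPM for library A. The relative log2 fold change was 0.16 ± 0.085 (SE; limma adjusted p = 0.9365).

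By limma-trend, 0 of the 10 genes were called at an adjusted p under 0.05, where 0.0173% of all tested genes were called, PCH2 alone. By limma-voom 0 of the 10 were called as well, against 0.45% of all tested genes. At an unadjusted p under 0.05 by limma-trend there was 1 of the 10, PCK1, against 15.8% of all genes. By limma-voom PCK1 was again the only 1 of the 10, against 866 of the 5783 genes tested. In 3 of the 10 genes both libraries of 1 strain lay beyond both of the other, against 51.8% of all genes. Both ndt80pch2 libraries were above in 2 of them, PCK1 and CAT8, against 9.41% of all genes, and below in 1, MDH2, against 42.4%. These orders, here and in the other lists, were read on TPM without subtracting the median of -0.15, in all genes alike. Leaving out 1 library can only keep or raise such a count, since fewer values have to be separated. It was 8 of the 10 without A (70.5% of all genes), 7 without B (72.6%), 3 without C (81.2%) and 8 without D (78.4%). The median relative log2 fold change of the 10 was 0.021, beside 0 for all genes by construction. It was -0.036 without library A, 0.16 without B, 0.089 without C and -0.055 without D. Relative to the median gene 7 of the 10 were above and 3 below, while before the subtraction of -0.15 there were 3 above 0 and 7 below. The sign differed between the scales in 4, ICL1, MDH2, ACS1 and ADY2. PCK1, MLS1 and CAT8 were above, and FBP1, JEN1 and SFC1 below, on both scales. Over the 10 genes the 95% intervals of the relative fold ran from 0.609 (SFC1) to 1.694 (PCK1), so each excluded a change of 2-fold in either direction, before any adjustment for the number of genes.

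**Figure D2:**
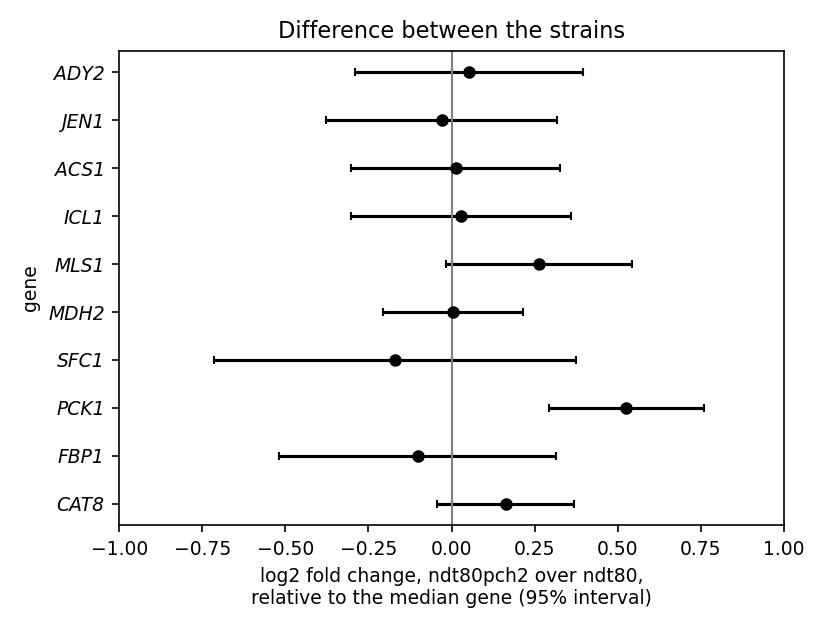
Log2 fold change of each gene, ndt80pch2 over ndt80, relative to the median of all tested genes; points are limma-trend estimates and bars their 95% intervals. PCK1, at 0.53, is the 1 gene whose interval does not reach 0; the lowest estimate is that of SFC1, at -0.17.

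The order of the levels was nearly the same in both strains. In ndt80pch2 it was ADY2, ACS1, PCK1, MDH2, ICL1, MLS1, JEN1, CAT8, SFC1 and FBP1, from high to low, with the libraries of each neighbouring pair apart. In ndt80 the order differed in 1 place, with JEN1 before MLS1. The libraries of MDH2 and ICL1 overlapped in ndt80, as did those of JEN1 and MLS1, so the order within these pairs is not settled there. Levels were also ranked among the nuclear genes with a value in all 4 libraries. There FBP1 stood near the middle, at the 43.3 and 49.6 percentile in ndt80pch2, against 50.0 and 44.8 in ndt80. PCK1 stood at the 99.3 percentile in both ndt80pch2 libraries and 99.1 in both ndt80 libraries. Among the same genes PCK1 ranked 47th and 46th in ndt80pch2, against 59th and 60th in ndt80.

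Several of these genes have a paralogue or isoenzyme, and the pairs were set side by side, outside the rule for named genes. The longest stretch of identical coding sequence was 20 bases in ACS1 and ACS2, 19 in MLS1 and DAL7 and 17 in ADY2 and ATO2, and it was shorter in the other pairs compared. ACS2, the acetyl-CoA synthetase used in glucose, had 42.1 and 60.9 TPM in ndt80pch2, against 72.5 and 84.4 TPM in ndt80 (relative log2 change -0.47, limma adjusted p = 0.2866). ACS1 thus exceeded ACS2 60.4-fold and 45.7-fold in ndt80pch2, against 37.0-fold and 37.6-fold in ndt80. ACS2 had both ndt80pch2 libraries below both ndt80 libraries, as in 42.4% of all tested genes, while those of ACS1 overlapped. ADY2 exceeded its paralogue ATO2 42.4-fold and 55.1-fold in ndt80pch2, against 55.5-fold and 55.8-fold in ndt80. DAL7, the other malate synthase gene, had 11.1 and 6.59 TPM in ndt80pch2, against 7.33 and 6.38 TPM in ndt80. MDH1, which encodes the mitochondrial malate dehydrogenase, had 847 and 1029.9 TPM in ndt80pch2, against 931 and 857 TPM in ndt80, so MDH2 stayed below it in every library. ICL2, which encodes a mitochondrial methylisocitrate lyase, had 419.6 and 446 TPM in ndt80pch2, against 361 and 384 TPM in ndt80 (limma adjusted p = 0.3132).

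The deposited ndt80 column gives another picture of these genes if it is read row by row. ADY2 and ACS1 stand before the first mitochondrial row, and their printed values are means of their own libraries. In the rows of the other 8, library A belongs to the gene named and library B to another gene. The ICL1 row averages ICL1 in library A with IDP3 in library B, which had 26.1 TPM there, and so prints 274 where the recovered mean of ICL1 in ndt80 was 598.6 TPM. The PCK1 row takes PDB1 (501.6 TPM) as its second gene and prints 1084, against a recovered mean of 1675 TPM. The MLS1 row takes MND2 (106 TPM), the MDH2 row MDM34 (132.5 TPM) and the CAT8 row CBP3 (58.0 TPM).

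The ratio of ndt80pch2 over ndt80 in the deposited columns as printed was 2.01 for PCK1, 1.997 for ICL1, 1.748 for MLS1, 1.577 for CAT8 and 1.559 for MDH2. In the recovered means the same ratios were 1.30, 0.914, 1.08, 1.011 and 0.905. As printed, 5 of the 10 genes were at least 1.5-fold higher in ndt80pch2, where 24.3% of all tested genes were. In the recovered means 0 of the 10 were, where 2.99% of all tested genes were. At least 2-fold apart in either direction was 1 of the 10 as printed, PCK1, against 32.2% of all tested genes, and 0 in the recovered means, against 3.53%. For FBP1 and SFC1 the printed ratios were 0.745 and 0.684, against 0.838 and 0.777 in the recovered means. JEN1, whose row takes JSN1 (145 TPM), changed side, with a printed ratio of 1.339 and a recovered one of 0.8775.

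**Figure D3:**
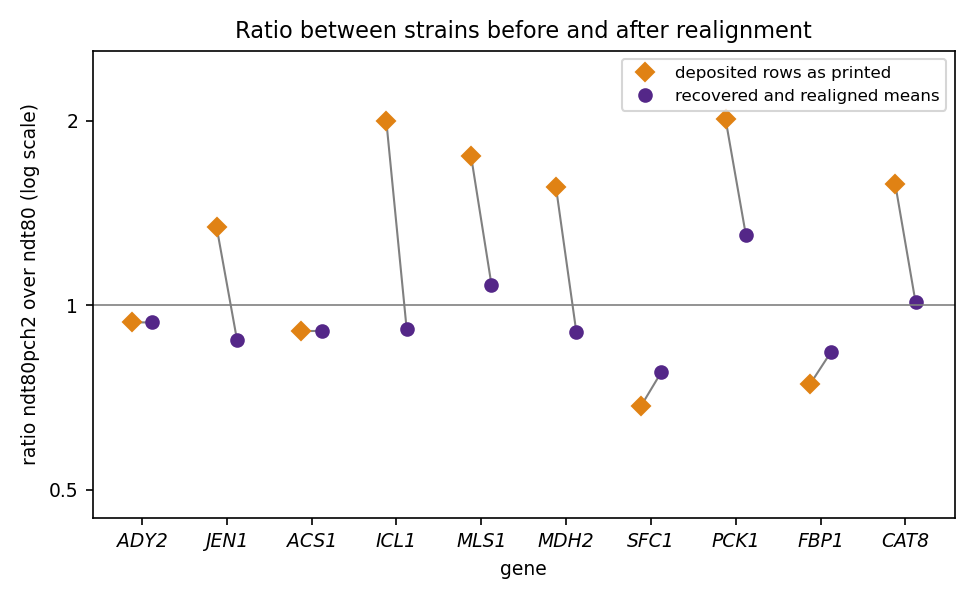
Ratio of ndt80pch2 over ndt80 (log scale) for each gene, in the deposited rows as printed (diamonds) and in the recovered, realigned means (circles). ADY2 and ACS1 keep their ratios of 0.9375 and 0.908, while ICL1 has 1.997 as printed and 0.914 after realignment.

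The surrounding metabolism was read through 9 further lists with 103 genes, of which 102 were tested. By limma-trend 0 were called in either direction, and at an unadjusted p under 0.05 there were 9 higher and 9 lower in ndt80pch2, where 2.70% and 13.1% of all tested genes were. By limma-voom 2 were called, both higher, ENO1 and DLD3, where 0.294% of all tested genes were called higher.

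The enzymes that glycolysis and gluconeogenesis share had the highest median of the 9 lists, 0.44 on the relative log2 scale. All 9 tested members stood above the median gene, from 0.33 (TDH3) to 0.73 (ENO1), and in 6 both ndt80pch2 libraries were above both ndt80 libraries, as in 9.41% of all tested genes. ENO1, an enolase, had 5226 and 4875.5 TPM in ndt80pch2, against 3641 and 3138 TPM in ndt80 (limma-trend adjusted p = 0.2552, and 0.01742 by limma-voom). PGK1, phosphoglycerate kinase, had 7669.5 and 7859 TPM in ndt80pch2, against 6481 and 5835 TPM in ndt80 (limma-trend adjusted p = 0.3142). TDH3, glyceraldehyde phosphate dehydrogenase, had 5785 and 5492 TPM in ndt80pch2, against 5310.0 and 4657 TPM in ndt80. FBA1 had no single solution in library B and was left out. The list of irreversible glycolytic steps, which also held the regulatory genes PFK26, PFK27 and FBP26, had a median of 0.22, with 7 of 10 above the median gene. HXK1, a hexokinase, had 3616 and 3068 TPM in ndt80pch2, against 2518.5 and 2250.0 TPM in ndt80 (limma-trend adjusted p = 0.2865). CDC19, pyruvate kinase, had 2009 and 1369.6 TPM in ndt80pch2, against 1514 and 1224 TPM in ndt80, and its libraries overlapped.

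**Figure D4:**
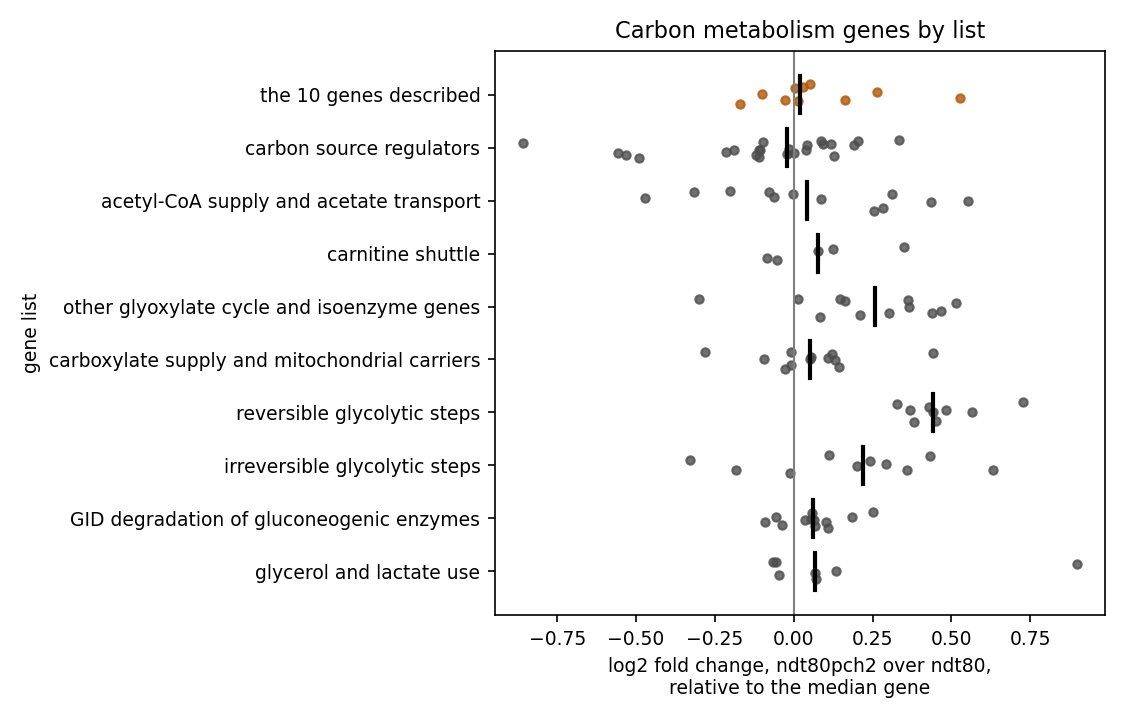
Log2 fold change relative to the median gene for every tested gene of each list, ndt80pch2 over ndt80; points are genes and black bars list medians. The 10 genes described centre on 0.021 with PCK1 at the right, and the 9 tested genes of the reversible steps all lie between 0.33 and 0.73.

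The other glyoxylate cycle and isoenzyme genes had a median of 0.26, with 11 of 12 above the median gene and 0 called. CIT1, the mitochondrial citrate synthase, had 1578 and 1826.5 TPM in ndt80pch2, against 1294 and 1432 TPM in ndt80. CIT2, the peroxisomal citrate synthase that serves the glyoxylate cycle, had 1521 and 1809 TPM in ndt80pch2, against 1182 and 1399 TPM in ndt80. Both genes had both ndt80pch2 libraries above both ndt80 libraries, each with a limma adjusted p of 0.2966. That order was seen in 3 of the 12 genes, against 9.41% of all tested genes, and the reverse in 2, against 42.4%. None of ICL1, MLS1 and MDH2 had both ndt80pch2 libraries above both ndt80 libraries, as given above.

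Regulators of carbon source use had a median of -0.020, with 10 of 23 above the median gene and 0 called. The relative log2 changes ran from -0.86 (HAP3) to 0.33 (SIP4). Both ndt80pch2 libraries were below both ndt80 libraries in 11 of the 23, against 42.4% of all tested genes. They were above in 1, SIP4, against 9.41%. HAP4, the activator subunit of the respiratory Hap complex, had 770 and 697 TPM in ndt80pch2, against 829 and 748 TPM in ndt80. GLC7, the catalytic subunit of a phosphatase that counters Snf1, had 527 and 581 TPM in ndt80pch2, against 537 and 536 TPM in ndt80. SIP4, the partner of CAT8 at the carbon source responsive element and named outside the rule, had 546 and 613 TPM in ndt80pch2, against 485 and 531.5 TPM in ndt80 (limma adjusted p = 0.379). Its transcript thus stood above that of CAT8 in every library.

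Acetyl-CoA supply and acetate transport genes had a median of 0.042, with 6 of 12 above the median gene. ALD3, a cytosolic aldehyde dehydrogenase, had 2166.5 and 3286 TPM in ndt80pch2, against 1789 and 2267 TPM in ndt80. ALD4, the main mitochondrial aldehyde dehydrogenase, had 899.9 and 1022.5 TPM in ndt80pch2, against 824 and 889.6 TPM in ndt80. The carnitine shuttle, which carries acetyl units into mitochondria, had a median of 0.076 over 5 genes. YAT2, a carnitine acetyltransferase, had 627 and 711 TPM in ndt80pch2, against 531 and 633 TPM in ndt80. CAT2, the main carnitine acetyltransferase, had 408 and 445 TPM in ndt80pch2, against 403 and 498 TPM in ndt80. In these 17 genes 0 were called by limma-trend or by limma-voom.

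Mitochondrial carriers and carboxylate supply had a median of 0.053 over 12 genes. MPC3, a subunit of the mitochondrial pyruvate carrier in respiring cells, had 2525 and 3012 TPM in ndt80pch2, against 2206 and 2289 TPM in ndt80 (limma adjusted p = 0.3189). MPC2, another subunit, had 498 and 538 TPM in ndt80pch2, against 509.9 and 529 TPM in ndt80. Genes listed for degradation of gluconeogenic enzymes had a median of 0.062 over 12 genes, among them VID22, which is not a GID ubiquitin ligase subunit. The GID ubiquitin ligase removes FBP1, PCK1, ICL1 and MDH2 proteins when glucose returns. Its substrate receptor gene VID24 had 763 and 493 TPM in ndt80pch2, against 689 and 618 TPM in ndt80, with the ndt80pch2 libraries on either side of the ndt80 ones. YLR149C, annotated as GID11, had 232 and 287.7 TPM in ndt80pch2, against 267 and 279 TPM in ndt80. Glycerol and lactate genes had a median of 0.068 over 7 genes. STL1, the glycerol importer, had 1033 and 1156 TPM in ndt80pch2, against 1134 and 1171 TPM in ndt80. DLD3, a D-lactate dehydrogenase gene, had 125 and 115 TPM in ndt80pch2, against 69.8 and 71.7 TPM in ndt80 (limma-trend adjusted p = 0.1665, and 0.009059 by limma-voom).

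Among the 10 meiotic prophase markers 1 was called by limma-voom, lower in ndt80pch2, where 0.156% of all tested genes were called lower. By limma-trend 0 were called, where 0.0173% of all tested genes were. DMC1, the meiotic recombinase gene, had 231 and 252 TPM in ndt80pch2, against 476 and 491 TPM in ndt80 (limma-voom adjusted p = 0.0005997, limma-trend 0.07042). The median relative log2 change of the 10 prophase markers was 0.13, and that of the dividing cell markers 0.0025. Their part in the values of the acetate genes was not tested.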

How the data were processed

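RNA was sequenced from 2 ndt80pch2 and 2 ndt80 samples. The submitters' processing notes name HISAT2 2.1.0, DESeq2 2.11.40.6, HTSeq 0.9.1 and FastQC, and the R64 (sacCer3) build, without their roles. The authors deposited 1 TPM-like value per gene and strain, in a column without a name, whose scale was inferred from the values; the steps behind it are not given in the sources used here.

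Each value was solved as a sum of whole reads of 2 libraries over coding length, within 0.55 of the last printed digit. This held for 99.98% of the 5983 ndt80pch2 values above 0 and for all 90 ndt80 values above 0 before row 94, the first mitochondrial row. From there 9.17% of ndt80 values solved in printed order, 9.38% with a random gene as the second term, and 99.94% with the gene at that row of the list without the 18 mitochondrial genes. The closing 18 rows were whole reads of library A alone. Of 6664 nuclear genes, 19 lacked a single solution and were left out; 11 took a length other than the annotated one. The solving and the fit were tested on simulated data. Of 5988 annotated genes, 5981 had the deposited coordinates.

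The test was limma 3.58.1 (R 4.3.3) on log2(TPM + 1) for genes averaging 1 TPM or more, with genotype as the only term and 0.05 as the limit on the adjusted p. Folds on this scale are too small for low genes. The plan foresaw normalized values per library, recovered before strains were compared. Intervals and floors (3 reads) cover counting error only. The treatment of reads matching several genes was not given in the sources used here. The 10 genes and all lists were chosen with earlier results of these data known. Named genes were the 10, PCH2 and NDT80, the 2 most abundant tested genes of each of the 9 other lists and any list gene called. Python 3.11.15, numpy 2.4.6, pandas 2.3.3, scipy 1.17.1 and matplotlib 3.10.9 were used.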

Additional observations from a re-analysis of the deposited data

Results flagged for a closer look

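Reads on mitochondrially encoded genes lay outside the comparison: ndt80 library A held 67253 of them, with no counterpart recovered for library B, C or D, so these reads were compared with nothing.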

How the results depend on the processing

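Alternatives were a pseudocount of 0.1, no filter, a mean TPM of at least 10, median-of-ratios factors, limma-voom, each library left out, and the deposited columns row by row. Of the 10 genes 0 were called under any of those with a test. Over 90 combinations of gene and setting, 74 kept the direction relative to the median gene and 16 did not. With no filter ICL1 was at -0.0017, MDH2 at -0.027 and ACS1 at -0.019. The changes of these genes before the subtraction do not depend on the filter. Only the subtracted median moved, from -0.1475 to -0.1164. The cause of the other reversals was not tested. With 1 library left out the ranges were -0.16 to 0.22 for ICL1, -0.048 to 0.058 for MDH2, -0.24 to 0.030 for FBP1, -0.11 to 0.14 for ACS1, -0.067 to 0.16 for ADY2, -0.23 to 0.17 for JEN1 and -0.52 to 0.18 for SFC1. PCK1 kept its side in all 9 tested settings (0.4955 to 0.5426, adjusted p 0.0636 to 0.7626), as did MLS1 (0.13 to 0.40) and CAT8 (0.13 to 0.17). The median of the 10 ran from -0.055 to 0.16 with 1 library left out and was 0.60 in the deposited columns. The count of genes without overlap ran from 3 to 8 with 1 library left out, which can only keep or raise it, against 70.5% to 81.2% of all genes. Calls over all genes numbered 1, and 25 with no filter, 4 at a mean TPM of at least 10 and 26 by limma-voom; with 1 library left out they ran from 0 to 1, PCH2 being lost without A and without B. A leave-one-out fit takes the lone library to vary like the other strain. In the wider promoter window 7 and 5 genes held the letters of the carbon source responsive element and of URS1, against 0 and 2. No paired analysis was possible because the recovered libraries carry no replicate number. FBP1 had 48 to 84 reads per library and wide counting intervals.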
